A study of Mus musculus with 12 samples.

Results

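Small leucine-rich proteoglycans are secreted proteins whose curved, leucine-rich core binds collagen fibrils and, in most members, carries chondroitin, dermatan or keratan sulfate chains. They set how thick and how closely packed fibrils become, and several of them hold or block growth factors such as TGF-beta and BMPs. In most organs they are made by fibroblast-like and other mesenchymal cells, and they serve as marks of the stroma rather than of an epithelium.

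The family was followed here through 10 genes: Dcn, Bgn and Aspn (the decorin class), Lum, Fmod, Prelp and Omd (the lumican and fibromodulin class), Ogn and Epyc (the osteoglycin class) and Podn (podocan). They were found by gene symbol, older synonyms being updated, among the 30702 named genes of the array table. All 10 had a transcript cluster, the array's unit for 1 locus, and each had only 1, so that the rule of keeping the cluster with the highest mean over the 12 arrays never had to choose. No other measured value enters that rule, but the family itself was chosen by a view of earlier results of these arrays, the differences of XY FOXL2+ from either control among them. Its counts of changed members are therefore descriptions, and nothing is rested on their excess over other genes.

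RNA was measured on Affymetrix Mouse Transcriptome arrays from fetal mouse gonads at 14.5 days post coitum, 1 pair of gonads without the mesonephros per array and 4 arrays per group. XY control gonads were XY Rosa26+/+ with Sf1-Cre+/Tg. XY FOXL2+ gonads carried the allele Rosa26-CAG-LSL-Foxl2+/f together with Sf1-cre+/Tg. XX control gonads were XX Rosa26+/+ with Sf1-Cre+/Tg. All 3 groups thus carried the Sf1-cre transgene, and all were of a mixed 129Sv and C57Bl/6J background. Sf1-cre acts in somatic cells of the gonad that have expressed Sf1, where it lets the CAG promoter drive Foxl2, the gene of a transcription factor of ovarian granulosa cells. The comparisons ask how far forced FOXL2 moves an XY gonad from the testis pattern (XY FOXL2+ against XY control) and where it then stands relative to an ovary (XY FOXL2+ against XX control).

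Values are the deposited log2 signals. Foxl2 itself averaged 5.35 ± 0.21 in XY controls, 7.55 ± 0.81 with forced FOXL2 and 7.48 ± 0.42 in XX controls (SD, n = 4). The germ cell gene Ddx4 averaged 14.37, 14.21 and 14.78 in the same order, and the mesonephric gene Pax2 read 4.86, 4.85 and 4.89. These genes do not stand for their cell types. Against XY controls, 1 of 8 mesonephric markers rose and 2 fell, and 2 of 6 germ cell markers fell, where 2.46% of all clusters rose and 4.67% fell. A level is not comparable between genes, because each cluster has its own probes. Genes that must be silent still read 5.99 to 7.07 on average (Y-linked genes in XX controls, Xist in XY controls), so a lower signal is not shown to be above background, and folds to or from there give only the least change. Pax2 lies below that range, so its flat signal cannot show that nothing changed. Within XY FOXL2+, replicates 3 and 4 stood apart from the other 10 arrays on the third principal component (10.5% of the variance, at -49.7 and -44.2 against -12.7 to 35.6), and replicate 1 stood apart on the second (14.1%). For the family and for the counts of the gene lists, values without replicates 3 and 4 are given where these arrays change a call, a count or the size of a difference.

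Against XY controls, FOXL2 raised 3 of the 10 genes and lowered 1. Lum rose 4.34-fold, Prelp at least 2.69-fold and Dcn 1.50-fold, and Fmod fell 1.49-fold. The calls of Dcn and Fmod lay near the threshold: each was lost in 11 alternatives, and only 2 members were called without any 1 XY control or without XX control replicate 2 or 4. With XY FOXL2+ replicates 3 and 4 left out, 2 members were higher (Lum and Prelp) and 3 lower (Bgn, Fmod and Ogn). The other 6 members did not pass the test, and the median difference of the 10 was 0.00 on the log2 scale, the same as the median of all clusters. Of all 65956 clusters 2.46% were called higher and 4.67% lower in this comparison (7.12% either way), at a Benjamini-Hochberg adjusted p under 0.05 in limma. The XY FOXL2+ and XY control arrays did not overlap in 5 of the 10 members (Dcn, Lum, Bgn, Fmod and Prelp), against 12.2% of all clusters. Whole gonads were hybridised, so here and below fewer cells of a type and less RNA per cell cannot be told apart.

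Against XX controls, 4 members were higher in XY FOXL2+ and none was lower. These were Lum (4.81-fold), Ogn (4.62-fold), Dcn (4.05-fold) and Aspn (at least 4.26-fold, since its XX level is near that of silent genes). The median difference of the 10 was 0.59, against 0.03 for all clusters. Of all clusters 2.87% were called higher and 2.64% lower in this comparison (5.51% either way). The arrays of both groups did not overlap in 5 members (Dcn, Lum, Ogn, Aspn and Podn), against 11.5% of all clusters. Dcn and Lum were the 2 members called higher than both controls, as were 0.384% of all clusters. The call of Dcn against XY controls was lost without XY FOXL2+ replicates 3 and 4 (0.31, limma adjusted p = 0.203), and that of Lum was lost in no alternative run. These comparisons share the XY FOXL2+ arrays and are not independent of each other.

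The controls themselves differed. Ogn, Aspn, Dcn and Bgn were lower in XX than in XY gonads, Prelp was higher, and 5 members did not pass the test. Of all clusters 17.4% were called between the control sexes, 7.17% higher and 10.2% lower in XX. The control groups did not overlap in 5 members (Dcn, Bgn, Ogn, Prelp and Aspn), against 25.4% of all clusters. The largest of these differences were in Ogn (6.32-fold) and Aspn (at least 4.76-fold).

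**Figure D1:**
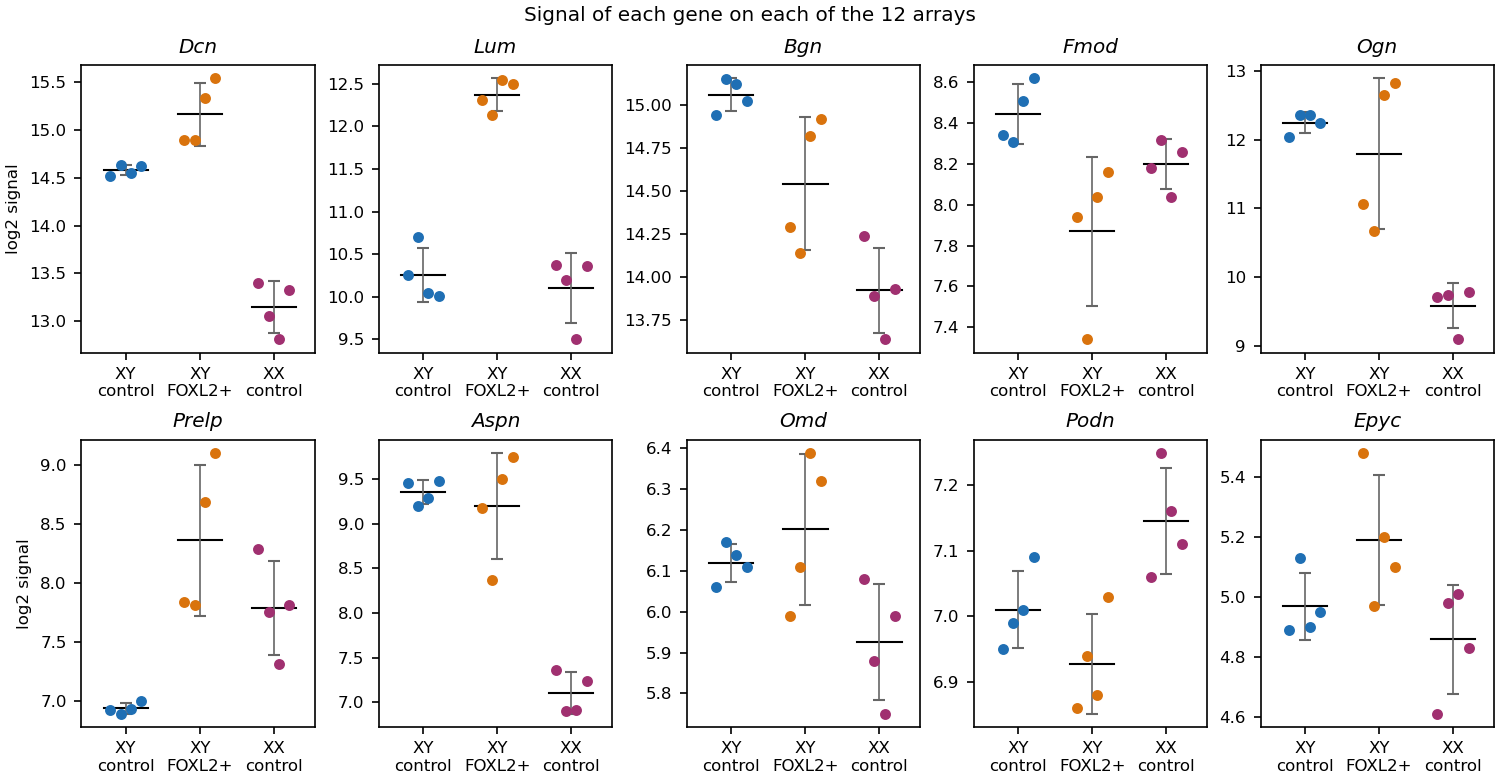
Deposited log2 signal of each of the 10 small leucine-rich proteoglycan genes on every array, with 4 points per group, a line at the group mean and whiskers of 1 SD. The 4 XY FOXL2+ arrays of Lum lie between 12.13 and 12.55, above all 8 control arrays, while in Ogn they spread from 10.67 to 12.82.

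Lumican, encoded by Lum, spaces collagen fibrils evenly and is best known from the cornea. Its signal was 10.26, 10.70, 10.05 and 10.01 in XY controls (replicates 1 to 4), 12.31, 12.13, 12.55 and 12.50 in XY FOXL2+, and 10.37, 10.20, 9.50 and 10.36 in XX controls. Every XY FOXL2+ array was above every control array, and the control groups overlapped. The difference from XY controls was 2.12 (SE 0.20, 95% interval 1.68 to 2.56, limma adjusted p = 3.21e-05), and that from XX controls was 2.27 (SE 0.20, interval 1.83 to 2.70, adjusted p = 9.88e-05). Between the control sexes the difference was -0.15 (interval -0.58 to 0.29, adjusted p = 0.72). The rise of Lum kept its call under all alternatives run against either control, at 1.97 to 2.27 against XY controls.

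PRELP, encoded by Prelp, binds heparan sulfate through its basic end and is thought to anchor basement membranes to the collagen beneath. Its signal was 6.92, 6.89, 6.93 and 7.0 in XY controls, 7.84, 7.81, 8.69 and 9.11 in XY FOXL2+, and 8.29, 7.75, 7.31 and 7.81 in XX controls. All XY FOXL2+ and XX arrays were above all XY control arrays, and the XY FOXL2+ arrays overlapped with the XX arrays. The XY mean of 6.93 lies at the level of silent genes, so the fold changes from it are lower bounds. The rise in XY FOXL2+ was 1.43 (SE 0.27, interval 0.85 to 2.01, limma adjusted p = 0.00595), and 0.89 without replicates 3 and 4 (adjusted p = 0.0128). XX controls were 0.86 above XY controls (at least 1.81-fold, limma adjusted p = 0.0437), a call that was lost in 8 alternatives, among them leaving out any 1 XY control (adjusted p 0.077 to 0.0907) or XX control replicate 1, 2 or 4 (0.132, 0.0855 and 0.0902). XY FOXL2+ and XX controls differed by 0.57 (interval -0.01 to 1.15, adjusted p = 0.281), and by 0.03 without XY FOXL2+ replicates 3 and 4 (adjusted p = 0.962); with array weights the difference was 0.87 and passed the test (adjusted p = 0.0347).

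Fibromodulin, encoded by Fmod, binds collagen beside lumican and steers the enzymes that crosslink it. Its signal was 8.34, 8.31, 8.51 and 8.62 in XY controls, 7.94, 7.34, 8.04 and 8.16 in XY FOXL2+, and 8.18, 8.32, 8.04 and 8.26 in XX controls. The XY FOXL2+ arrays lay below all XY control arrays, with replicate 2 the lowest, and overlapped with XX arrays. Fmod fell by 0.57 against XY controls (SE 0.15, interval -0.91 to -0.24, limma adjusted p = 0.0404). This call was close to the threshold. It was lost in 11 alternatives, among them quantile normalization (-0.48, adjusted p = 0.101), a fit on the compared groups alone (adjusted p = 0.117) and leaving out any 1 XY control (0.0562 to 0.111), any 1 XX control (0.0524 to 0.0593) or XY FOXL2+ replicate 1 (0.053). Against XX controls Fmod differed by -0.33 (interval -0.67 to 0.00, adjusted p = 0.273). Within this class, then, Lum and Prelp rose against XY controls and Fmod fell.

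Osteomodulin, encoded by Omd, is a keratan sulfate proteoglycan of mineralising tissue. It read 5.99 to 6.39 in XY FOXL2+, 6.06 to 6.17 in XY controls and 5.75 to 6.08 in XX controls, at the level of silent genes. No difference of Omd passed the test over all arrays: it was 0.08 against XY controls (interval -0.13 to 0.29) and 0.28 against XX controls (0.07 to 0.49, limma adjusted p = 0.135). The latter passed it without XY FOXL2+ replicate 1 (0.35, adjusted p = 0.049) and with array weights (0.36, 0.0223).

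Decorin, encoded by Dcn, coats collagen fibrils, limits their sideways growth and binds TGF-beta. Its signal was 14.52, 14.63, 14.55 and 14.62 in XY controls, 14.89, 14.89, 15.33 and 15.54 in XY FOXL2+, and 13.40, 13.06, 12.81 and 13.33 in XX controls. The 3 groups did not overlap, and XY FOXL2+ was the highest. Dcn was 1.43 lower in XX than in XY controls (a difference of -1.43, 2.70-fold, limma adjusted p = 4.19e-05), so the rise in XY FOXL2+ went away from the ovarian level. Against XX controls it was 2.02 higher in XY FOXL2+ (SE 0.16, interval 1.68 to 2.36, limma adjusted p = 3.96e-05), and 1.75 higher without replicates 3 and 4 (adjusted p = 0.000203). Against XY controls the rise was 0.58 (SE 0.16, interval 0.25 to 0.92, adjusted p = 0.0404). That last call depended on XY FOXL2+ replicates 3 and 4, the highest arrays: without them the rise was 0.31 (adjusted p = 0.203), without replicate 3 alone 0.53 (0.0835) and without replicate 4 alone 0.46 (0.0917). It was also lost without any 1 XY control (adjusted p 0.0738 to 0.1), without XX control replicate 2 or 4 (0.0565 and 0.0518), in a fit on the compared groups alone (0.0598) and with the replicate number as a block (0.0516).

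Biglycan, encoded by Bgn on the X chromosome, is the closest relative of decorin and shares its binding to collagen and TGF-beta. Its signal was 14.94, 15.15, 15.12 and 15.02 in XY controls, 14.29, 14.14, 14.82 and 14.92 in XY FOXL2+, and 14.24, 13.89, 13.64 and 13.93 in XX controls. All XY FOXL2+ arrays were below all XY controls, replicates 3 and 4 just so, and replicate 2 fell within the range of XX controls. XX controls were lower than XY controls (a difference of -1.13, 2.19-fold, limma adjusted p = 0.00045). XY FOXL2+ differed from XY controls by -0.51 (SE 0.17, interval -0.88 to -0.14, limma adjusted p = 0.0989) and from XX controls by 0.61 (SE 0.17, interval 0.25 to 0.98, adjusted p = 0.0559), and neither passed the test. Without replicates 3 and 4 the first of these was -0.84 and passed it (adjusted p = 0.00262), as it did without replicate 4 alone (-0.64, adjusted p = 0.0368). The second was 0.29 without replicates 3 and 4 (limma adjusted p = 0.351). The difference from XX controls passed the test without XY FOXL2+ replicate 1 (0.70, adjusted p = 0.0356) or 2 (0.75, 0.0122), without XX control replicate 1 (0.72, 0.0438), with array weights (0.79, 0.00457) and with low-signal clusters left out (0.61, 0.0381). Bgn and Dcn, alike in protein, thus lay on opposite sides of the XY control level in XY FOXL2+ gonads; the difference between the 2 genes was not tested.

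Asporin, encoded by Aspn, lacks sulfated chains, binds collagen at the site that decorin uses and restrains TGF-beta and BMP signals. Its signal was 9.46, 9.20, 9.29 and 9.48 in XY controls, 9.18, 8.37, 9.50 and 9.74 in XY FOXL2+, and 7.36, 6.90, 6.92 and 7.24 in XX controls. The XX arrays were all below both other groups, which overlapped. Aspn was lower in XX than in XY controls (a difference of -2.25, 4.76-fold, limma adjusted p = 2.83e-05) and 2.09 higher in XY FOXL2+ than in XX controls (SE 0.23, interval 1.59 to 2.60, adjusted p = 0.000369). The XX mean of 7.11 is close to the level of silent genes, so both folds are lower bounds. Against XY controls the difference was -0.16 (interval -0.67 to 0.34, adjusted p = 0.772).

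Osteoglycin, encoded by Ogn and also called mimecan, takes part in collagen fibril assembly in connective tissue. Its signal was 12.03, 12.35, 12.36 and 12.24 in XY controls, 11.06, 10.67, 12.64 and 12.82 in XY FOXL2+, and 9.71, 9.75, 9.10 and 9.79 in XX controls. XY FOXL2+ was split: replicates 1 and 2 lay below all XY controls, replicates 3 and 4 above them, and all 4 lay above XX controls. The SD of 1.09 was the largest of the 10 members in any group. Ogn differed between the control sexes by -2.66 (6.32-fold lower in XX, limma adjusted p = 0.000433) and was 2.21 higher in XY FOXL2+ than in XX controls (SE 0.40, interval 1.34 to 3.07, adjusted p = 0.00658). Without replicates 3 and 4 that difference was 1.28 and still passed the test (adjusted p = 0.00608). Against XY controls it was -0.45 (SE 0.40, interval -1.32 to 0.42, limma adjusted p = 0.598) over all 4 arrays and -1.38 without replicates 3 and 4 (adjusted p = 0.000797).

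Epiphycan, encoded by Epyc, belongs to growth-plate cartilage, and podocan, encoded by Podn, to the matrix of vessels and kidney. Epyc read 4.61 to 5.48 and Podn 6.86 to 7.25 over the 12 arrays, Epyc below and Podn about the level of silent genes. No difference of either gene passed the test. Podn averaged 6.93 in XY FOXL2+ and 7.15 in XX controls without overlap (a difference of -0.22, limma adjusted p = 0.115), and Epyc was 0.22 and 0.33 above XY and XX controls (adjusted p = 0.319 and 0.125).

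**Figure D2:**
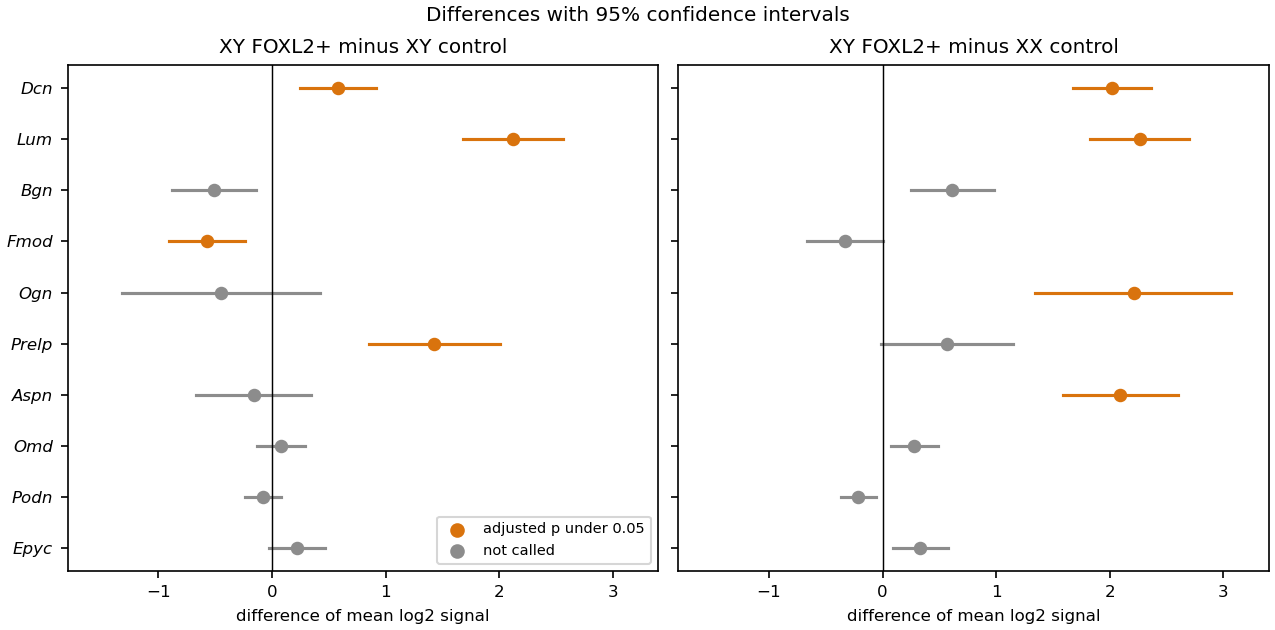
Difference in log2 signal of each of the 10 genes between XY FOXL2+ and XY controls (left) and XX controls (right), with its 95% interval from limma; orange marks an adjusted p under 0.05. Lum lies at 2.12 and 2.27, while Ogn and Aspn lie near or below 0 on the left (-0.45 and -0.16) and above 2 on the right (2.21 and 2.09).

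The XY FOXL2+ arrays were spread widely in this family. The median SD of the 10 members was 0.34 in XY FOXL2+, against 0.16 over all clusters, 0.10 in XY controls (0.13 over all clusters) and 0.24 in XX controls (0.12). Replicates 3 and 4 were both above replicates 1 and 2 in 8 of the 10 members (all but Podn and Epyc), against 27.7% of all clusters, a pattern noticed after the values were seen. The mean over the 10 genes was 9.58 and 9.34 in XY FOXL2+ replicates 1 and 2 and at most 10.12 in replicates 3 and 4, both of which were higher, 9.44 to 9.55 in XY controls and 8.52 to 8.93 in XX controls. The same arrays also had the higher means of Leydig and Sertoli cell genes. The mean over 4 fetal Leydig cell genes was 8.66, 7.91, 11.09 and 11.17 in replicates 1 to 4 (15.78 to 16.17 in XY controls, 7.83 to 8.07 in XX controls), and the mean over 8 Sertoli cell genes was 8.56, 7.65, 9.70 and 9.57 (11.27 to 11.51 and 6.95 to 7.0). Over 8 fetal granulosa cell genes it was 9.05, 9.66, 8.11 and 8.07 (7.38 to 7.46 and 9.90 to 10.25), with replicates 3 and 4 the lowest. The part of these differences in the results of the family was not tested.

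**Figure D3:**
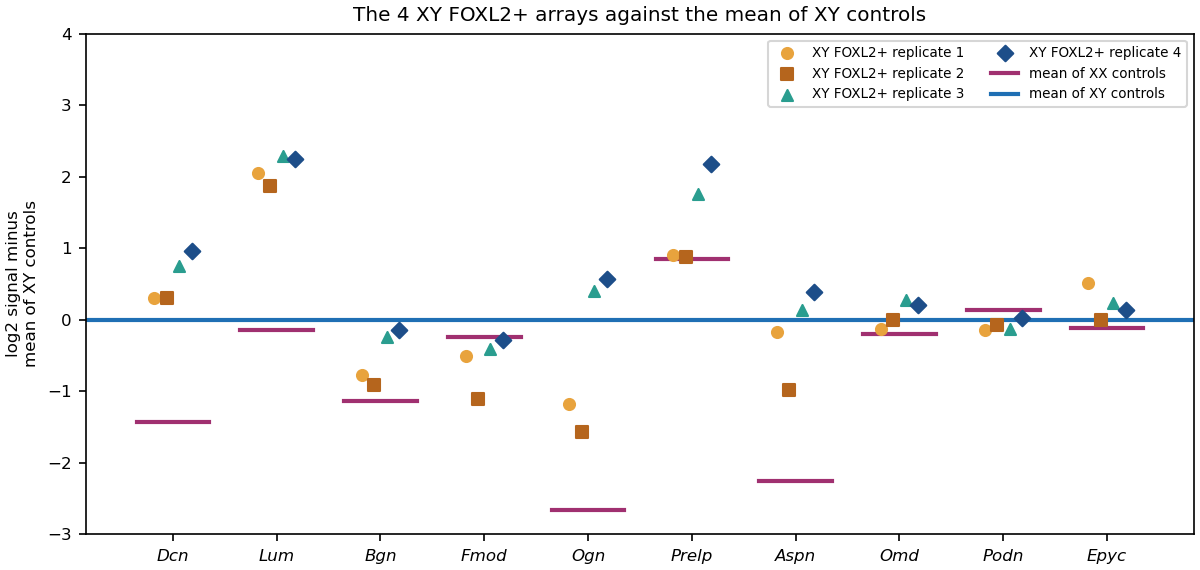
Log2 signal of the 10 genes on the 4 XY FOXL2+ arrays, 1 symbol per replicate, as the difference from the mean of XY controls (line at 0); purple bars are the means of XX controls. Replicates 3 and 4 are above replicates 1 and 2 in 8 of the 10 genes, and most widely in Ogn, which reads 11.06 and 10.67 in replicates 1 and 2 and 12.64 and 12.82 in replicates 3 and 4.

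Most of the family lies in 3 groups of neighbouring genes. In the order of protein-coding genes in RefSeq, Dcn, Lum, Kera and Epyc follow each other on chromosome 10, Ecm2, Aspn, Omd and Ogn on chromosome 13, and Optc, Prelp and Fmod on chromosome 1, while Bgn lies on X and Podn on chromosome 4. Kera encodes keratocan, a further keratan sulfate proteoglycan of the cornea. It read 5.38, 5.98, 5.46 and 5.46 in XY controls, 6.78, 6.84, 6.39 and 6.47 in XY FOXL2+ and 5.78, 5.53, 5.63 and 5.63 in XX controls. XY FOXL2+ was above every control array, by 1.05 against XY controls (SE 0.14, limma adjusted p = 0.00046) and 0.97 against XX controls (adjusted p = 0.00155), and the control sexes differed by 0.07 (adjusted p = 0.81). All these levels lie at or below those of silent genes, so the folds (at least 2.06 and 1.96) are lower bounds. On chromosome 10, then, Dcn, Lum and Kera were called higher than both controls, with the call of Dcn against XY controls lost in 11 alternatives. Epyc was not called, but it reads below the level of silent genes, where a change may not be seen.

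On chromosome 13, Aspn and Ogn were lower in XX than in XY controls and higher in XY FOXL2+ than in XX controls. Omd between them, at the level of silent genes, passed neither test over all arrays. Ecm2, which encodes a related matrix protein, was 0.36 above XX controls in XY FOXL2+ (limma adjusted p = 0.00738, and 0.0804 without XY FOXL2+ replicates 3 and 4) and differed from XY controls by 0.14 (adjusted p = 0.279). On chromosome 1, Prelp rose and Fmod fell against XY controls. Optc, the gene of opticin, a proteoglycan of the vitreous, averaged 0.40 lower (a difference of -0.40, limma adjusted p = 0.0411, lost in 10 alternatives with values up to 0.112, nearly all of them leaving out a single array). Neighbours on chromosome 1 thus differed in direction over all arrays, but the call of Fmod was lost in 11 alternatives. That call was kept without XY FOXL2+ replicates 3 and 4 together (-0.80, limma adjusted p = 0.00728). The levels of Optc and the XY control level of Prelp also lie near that of silent genes.

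**Figure D4:**
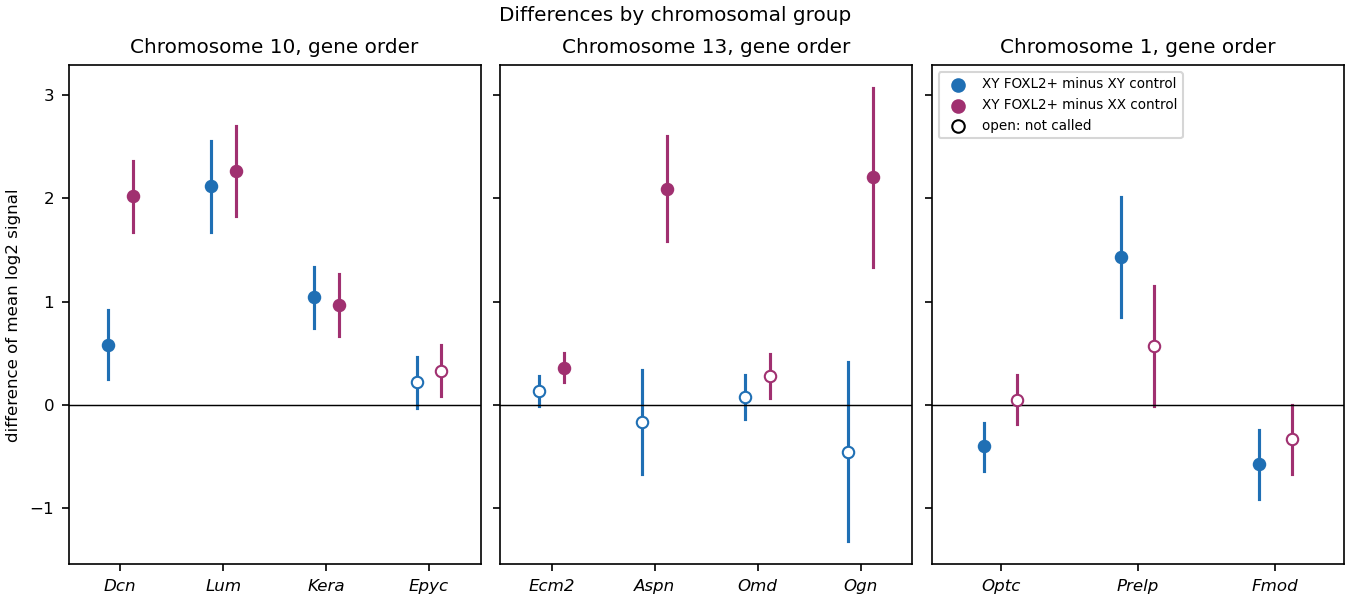
Difference in log2 signal between XY FOXL2+ and each control for the genes of the 3 chromosomal groups, in RefSeq gene order and not to genomic scale, with 95% intervals; open points did not pass the test. On chromosome 10 Dcn, Lum and Kera are above 0 against both controls (Lum 2.12 and 2.27), and on chromosome 1 Prelp (1.43) and Fmod (-0.57) lie on opposite sides of 0 against XY controls. The call of Fmod was lost in 11 alternatives.

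The 250 bases before the start are shown for Aspn, Omd and Ogn on chromosome 13 and for Prelp, which rose. Aspn and Ogn were called higher than in XX controls, while Omd, at the level of silent genes, was not called over all arrays. Prelp lies beside Fmod, whose call in the opposite direction was lost in 11 alternatives. The windows are RefSeq sequence (GRCm38.p6), written 5′ to 3′ on the strand of the gene, and capitals mark matches to TAAACA, the core of many forkhead binding sites, and to TATAAA, the TATA box. Aspn starts after chr13:49544193-49544442, Omd after chr13:49582212-49582461 and Ogn after chr13:49607765-49608014 (plus strand), and Prelp before chr1:133921402-133921651 (minus strand).
Aspn: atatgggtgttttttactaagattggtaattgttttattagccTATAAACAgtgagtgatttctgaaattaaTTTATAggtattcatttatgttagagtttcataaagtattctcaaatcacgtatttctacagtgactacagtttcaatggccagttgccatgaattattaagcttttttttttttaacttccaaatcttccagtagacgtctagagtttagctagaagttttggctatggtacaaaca
Omd: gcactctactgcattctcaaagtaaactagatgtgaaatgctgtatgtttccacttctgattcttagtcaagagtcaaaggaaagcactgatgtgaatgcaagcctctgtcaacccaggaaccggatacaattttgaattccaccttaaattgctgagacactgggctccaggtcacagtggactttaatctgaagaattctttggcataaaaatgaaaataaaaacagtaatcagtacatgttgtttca
Ogn: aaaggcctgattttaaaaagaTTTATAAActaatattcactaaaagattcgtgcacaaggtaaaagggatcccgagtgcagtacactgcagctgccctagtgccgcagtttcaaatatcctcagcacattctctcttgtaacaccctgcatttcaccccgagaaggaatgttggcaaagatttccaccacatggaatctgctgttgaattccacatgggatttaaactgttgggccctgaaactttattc
Prelp: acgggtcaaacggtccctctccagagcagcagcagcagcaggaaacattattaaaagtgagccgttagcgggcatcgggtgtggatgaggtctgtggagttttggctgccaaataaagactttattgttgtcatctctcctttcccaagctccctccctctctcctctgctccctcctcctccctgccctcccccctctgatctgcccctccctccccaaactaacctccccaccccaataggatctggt

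Entries were found for 8 of the 10 members. Dcn and Lum, the 2 members called higher than both controls, had none, so the search does not cover them. Both strands were searched for 3 motifs over the 32851 windows of 250 bases in the RefSeq table. Epyc and Podn had more windows than the other members, and a member was counted if any of its windows held the motif. Shares are by window, so the counts and shares are unlike measures. TAAACA was in 2 of the 8 members (Aspn, 205 bases before the start, and Epyc, at 164 and 137) and in 12% of all windows. TATAAA was in 2 (Aspn, at 207 and 178, and Ogn, at 229 and 227, the last pair overlapping) and in 12.4% of windows. In Aspn the matches at 207 and 205 overlap, so the same bases serve both motifs. AAGGTCA, the core of many SF1 binding sites, was in none of the 8 and in 4.08% of windows. These are matches of letters only. The TATAAA matches lie 178 to 229 bases before the start, and none is shown to be a working TATA box. Neither Omd nor Prelp held any of the 3 motifs in its window.

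The enzymes that build the sulfated chains moved in both directions. Of 26 measured genes of chain synthesis, 3 rose and 4 fell against XY controls, and 4 were higher and 4 lower than in XX controls, with median differences of 0.03 and 0.15. Over all clusters, 2.46% were called higher and 4.67% lower than in XY controls, and 2.87% and 2.64% than in XX controls. Without XY FOXL2+ replicates 3 and 4, 6 rose and 6 fell against XY controls, and 1 was higher and 2 lower than in XX controls. The counts against XX controls were also 2 and 2 without XY FOXL2+ replicate 3 or 4 or any 1 XX control, and 2 and 4 without XY control replicate 1, 3 or 4. Chst15, which adds a second sulfate to chondroitin units, rose by 1.05 against XY controls (limma adjusted p = 0.000453) and was 0.89 above XX controls (adjusted p = 0.00272). Dsel, a dermatan sulfate epimerase, rose by 0.77 against XY controls (adjusted p = 0.00922), and by 0.48 without XY FOXL2+ replicates 3 and 4 (adjusted p = 0.0421). Csgalnact1, which starts chondroitin chains and has an XY control level near that of silent genes, rose by at least 1.26 (limma adjusted p = 0.0128, and 0.0549 in a fit on the compared groups alone) but stayed below XX controls (a difference of -2.0, adjusted p = 0.00122). Without XY FOXL2+ replicates 3 and 4 these differences were 1.91 and -1.36. Xylt1, whose product attaches the first sugar to the core protein, fell by 0.63 against XY controls (adjusted p = 0.000624), and the sulfotransferases Chst2 and Chst1 fell by 0.98 and 0.79 (adjusted p = 0.000205 and 0.00131).

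Of 24 measured genes of collagen fibrils and their crosslinking, 3 rose and 3 fell against XY controls, and 7 were higher and none lower than in XX controls, while 16 were lower and 2 higher in XX than in XY controls. Shares over all clusters were 2.46% higher and 4.67% lower against XY controls, and 2.87% and 2.64% against XX controls. Between the control sexes they were 7.17% higher and 10.2% lower in XX. The count of 7 was 3 without XY FOXL2+ replicates 3 and 4, together or singly, 13 without replicate 2, and 4 without XX control replicate 2 or 3. Against XY controls, 2 rose and 10 fell without replicates 3 and 4. Tnc, the gene of tenascin C, a matrix glycoprotein of remodelling stroma, read 9.15, 9.40, 8.84 and 9.03 in XY controls, 10.66, 10.57, 10.90 and 10.65 in XY FOXL2+ and 8.62, 8.74, 8.42 and 8.63 in XX controls. It rose by 1.59 against XY controls (limma adjusted p = 6.78e-06) and was 2.09 above XX controls (adjusted p = 4.34e-06), with no overlap. Col12a1, a collagen that sits on the surface of fibrils, rose by 2.68 against XY controls (limma adjusted p = 6.78e-06) and differed from XX controls by -0.16 (adjusted p = 0.762). The fibril collagen Col1a2 and the crosslinking enzyme Lox did not pass the test against XY controls (-0.39 and -0.03) and were 1.11 and 1.01 above XX controls (adjusted p = 0.00679 and 0.00274). Without replicates 3 and 4, Col1a2 was called lower than in XY controls (-0.80, limma adjusted p = 0.00742), and both stayed above XX controls (0.70 and 0.77). Col14a1, another fibril-surface collagen, and Pcolce, which speeds procollagen cleavage, fell by 1.04 and 1.20 against XY controls (limma adjusted p = 0.00278 and 0.00184).

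Among 20 growth factors, receptors and proteases that bind or process the family, none rose and 3 fell against XY controls, while 5 were higher and 1 lower than in XX controls. The shares over all clusters were 2.46% higher and 4.67% lower against XY controls, and 2.87% and 2.64% against XX controls. Without XY FOXL2+ replicates 3 and 4 the counts were 1 and 7 against XY controls and 3 and 0 against XX controls, and 3 were also higher than in XX controls without replicate 3 or 4 alone or XX control replicate 2, 3 or 4. The 3 that fell were Tll1, a protease that trims procollagens and proteoglycans (by at least 1.08, near the level of silent genes, limma adjusted p = 4.62e-06), Ccn4 (by 1.02, adjusted p = 0.000151) and Tgfb2, a ligand that decorin binds (by 0.82, adjusted p = 0.01). Bmp4, a ligand, and Tgfbr3, a TGF-beta co-receptor, were 1.03 and 0.99 above XX controls (limma adjusted p = 0.00349 and 0.00437). Bmp1, which cleaves the propeptide of several family members, differed from XY controls by 0.18 (adjusted p = 0.337).

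Of 22 measured core proteins of proteoglycans outside the family, 1 rose and 7 fell against XY controls, and 4 were higher and 1 lower than in XX controls. Among all clusters, 2.46% were called higher and 4.67% lower than in XY controls, and 2.87% and 2.64% than in XX controls. Calls over all clusters were also mostly lower against XY controls (34.5% of them higher, and 45.1% after quantile normalization, when 1 core protein rose and 5 fell). Without XY FOXL2+ replicates 3 and 4 the counts were 1 and 9 against XY controls and 2 and 0 against XX controls. The 1 that rose was Sdc2, a cell-surface syndecan, by 0.80 (limma adjusted p = 0.000335), and it was also 0.66 above XX controls (adjusted p = 0.00244). Spock2, Gpc6 and Gpc1 fell by 1.59, 1.42 and 1.19 against XY controls (adjusted p = 4.6e-07, 4.04e-05 and 0.000135). Vcan, the gene of versican, a large proteoglycan of loose stroma, read 12.99, 11.74, 14.03 and 14.10 in XY FOXL2+, 12.89 to 13.16 in XY controls and 9.34 to 9.95 in XX controls. Its difference from XX controls was 3.60 (12.1-fold, limma adjusted p = 0.000359), or 2.75 without replicates 3 and 4 (6.71-fold, adjusted p = 0.000621), and from XY controls 0.19 (adjusted p = 0.848), or -0.66 without them (adjusted p = 0.164), with replicates 3 and 4 again the highest and replicate 2 the lowest, as in Ogn.

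**Figure D5:**
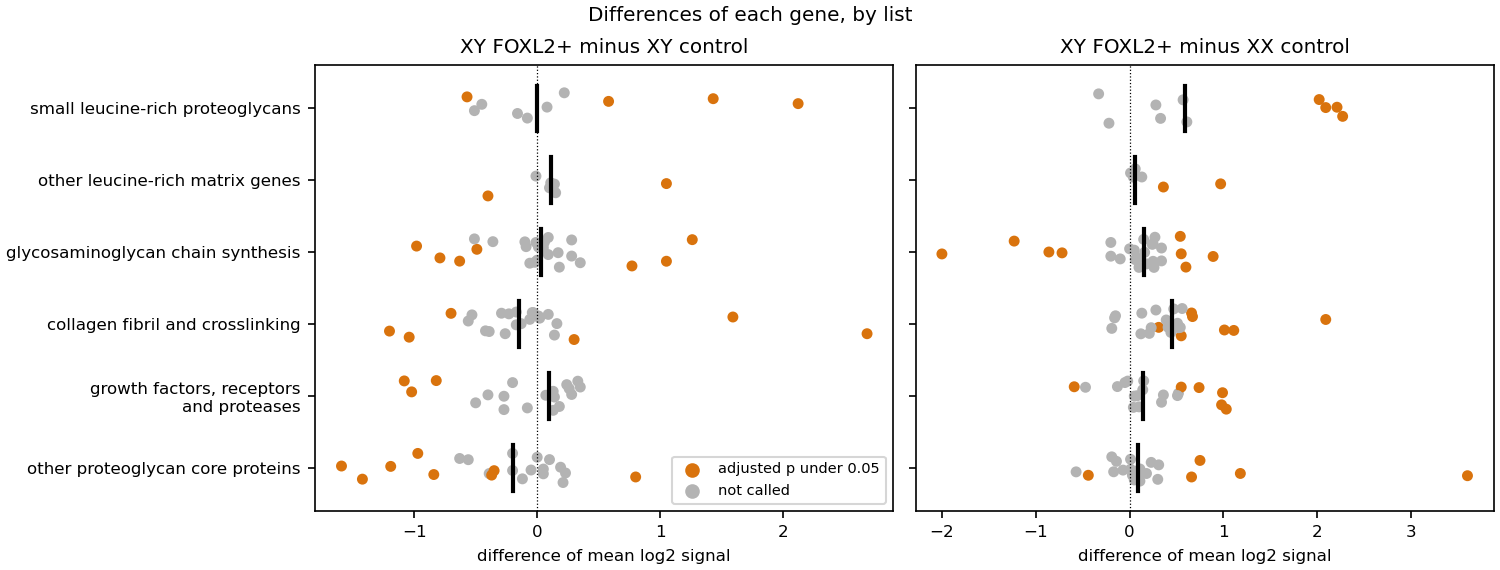
Difference in log2 signal of every measured gene of the small leucine-rich proteoglycans and 5 related lists, in XY FOXL2+ against XY controls (left) and XX controls (right); orange points passed the test and black lines are list medians. The family has 3 higher and 1 lower of 10 against XY controls and 4 higher and 0 lower against XX controls, while other proteoglycan core proteins have 1 higher and 7 lower of 22 against XY controls. Shares over all clusters are 2.46% higher and 4.67% lower against XY controls, and 2.87% and 2.64% against XX controls.

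General markers of stromal cells were called in both directions against XY controls. Of 9 measured fibroblast and mesenchyme markers, 1 rose and 1 fell against XY controls (2.46% and 4.67% of all clusters), and 3 were higher than in XX controls (2.87% of all clusters). Dpt rose by at least 1.73 (limma adjusted p = 0.00594), since its control levels lie near that of silent genes. Pdgfrb fell by 1.44 (limma adjusted p = 2.69e-05). Leaving out XY FOXL2+ replicates 3 and 4, 1 marker rose and 4 fell against XY controls, and 2 were higher than in XX controls. Dpt encodes dermatopontin, a matrix protein that binds decorin. It read 5.88, 6.19, 6.38 and 6.36 in XY controls, 7.14, 7.20, 8.67 and 8.74 in XY FOXL2+ and 6.14, 5.83, 5.77 and 6.11 in XX controls, above every control array, as in Lum. Without replicates 3 and 4 its rise against XY controls was 0.97 (limma adjusted p = 0.00176), and its difference from XX controls was 1.21 (adjusted p = 0.0023). Col1a1 and Col3a1 did not pass the test against XY controls (-0.56 and -0.29, adjusted p = 0.125 and 0.29). The mean over the 9 markers was 9.45 to 10.04 in XY FOXL2+, 9.76 to 9.85 in XY controls and 8.89 to 9.29 in XX controls.

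Other cell types moved as follows, where 2.46% of all clusters were called higher and 4.67% lower than in XY controls. Of 5 interstitial progenitor markers, 1 rose and 3 fell against XY controls, and 3 were higher than in XX controls (2.87% of all clusters). Only 1 was higher than in XX controls without XY FOXL2+ replicates 3 and 4. The call of Maf was lost in 10 alternatives against XX and 7 against XY controls, and that of Nr2f2 in 14 against XY controls. Of 8 peritubular myoid and smooth muscle markers, 6 fell, and all 4 Leydig and 7 of 8 Sertoli markers fell, while 5 of 8 granulosa markers rose. Of 8 endothelial and 8 macrophage markers, 3 and 4 rose, and of 10 cartilage and bone markers 1 did (Ibsp, by at least 0.99, near the level of silent genes, limma adjusted p = 0.00709), with list means of 5.91 to 6.07 in XY FOXL2+ against 5.83 to 5.91 in XY controls. Of 8 mesonephric duct and tubule markers, 1 rose and 2 fell, and their mean was 6.56 to 7.20 in XY FOXL2+, 6.42 to 6.70 in XY controls and 7.30 to 7.57 in XX controls. Of 7 surface epithelium markers 3 rose, and of 6 germ cell markers 2 fell. Without XY FOXL2+ replicates 3 and 4 the counts against XY controls stayed at 6, 4 and 7 lower for the myoid, Leydig and Sertoli lists. They became 8 higher for granulosa, 2 higher for each of the endothelial, macrophage, mesonephric and cartilage and bone lists, 4 higher for surface epithelium, and 4 lower for the germ cell and interstitial progenitor lists. No mesonephric marker was then lower (Lhx1 and Ret lost their calls), and no interstitial progenitor marker was higher. Ibsp then rose by 0.61 (adjusted p = 0.00717). The part of any of these in the changes of the family was not tested.

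The genes whose pattern over the 12 arrays came closest to that of each called member were found by the mean absolute difference after each gene was centred on its own mean, over the other 30701 named genes. For Lum these were Nrp2 (0.16), Abca9 (0.23) and Tnc (0.26), and Nrp2 averaged 8.60, 10.48 and 8.58 in the XY control, XY FOXL2+ and XX control groups. For Dcn they were Sulf2 (0.18), Lgi2 (0.21) and Tafa2 (0.23), and for Prelp Cst12 (0.14), Scara3 (0.21) and Fam110c (0.22). For Aspn they were Sema5a (0.16), Robo1 (0.17) and Grb14 (0.18), for Ogn Pappa (0.20), Eya1 (0.25) and Itga9 (0.26), and for Fmod Cdh3 (0.11), Plec (0.12) and Nexmif (0.12). The 3 nearest genes differed from member to member, and none was itself a member.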

How the data were processed

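RNA of 12 fetal gonad pairs was measured on 1-colour arrays, 4 per group. The deposited table holds the authors' processed values, read here as log2 on account of their range of 2.536 to 19.493. The base, background correction, summarization and normalization stand as not given in the sources used here, and another base would rescale every difference and fold but no test. No column of the table was unmapped. From these values, 6732 control probe sets were left out, and 65956 clusters were tested in R 4.3.3 by limma 3.58.1, using lmFit and a trended eBayes, in 1 fit of 3 groups (9 residual degrees of freedom), two-sided, with Benjamini-Hochberg adjustment over all clusters and a threshold of 0.05. The script was tested on simulated data. Clusters were named from the platform's gene table, with 1152 older symbols updated by RefSeq, and 1492 clusters with several symbols were left unnamed.

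The members and lists were chosen with earlier results of these data known. Named are all members, their chromosomal neighbours, at most the 3 largest called changes per list, direction and comparison, and the 3 genes of closest pattern for each member called against a control. Foxl2, Ddx4 and Pax2 serve as checks, and Bmp1 was added after its values were seen. Alternatives were quantile normalization, median centring, a signal filter, no trend, array weights, a fit on the compared groups alone, the replicate number as a block, averaging a gene's clusters, and leaving out arrays. The labels state that each array is a separate biological replicate. The labels name no batch, and the number of arrays limits the precision.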

Additional observations from a re-analysis of the deposited data

Results flagged for a closer look

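In Ogn, XX control replicate 3 read 9.10, apart from the other 3 XX arrays at 9.71 to 9.79. Its gap to the nearest of them was 0.892 of the group's whole range, above Dixon's 95% critical value for 4 samples. Without this array Ogn was still called higher in XY FOXL2+ than in XX controls (2.05, limma adjusted p = 0.0263). In Kera, the chromosomal neighbour of Lum, XY control replicate 2 read 5.98 against 5.38 to 5.46 in the others, a gap of 0.868 of the range, at a level not shown to be above background. Of 39 groups examined 2 stood out in this way, and chance alone gives about 1 in 20.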

How the results depend on the processing

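Of 624 values of single members under the alternatives, 578 kept their direction and side of the threshold, 30 fell short of it, 11 newly passed it and 5 changed sign. The sign changes were all in differences that did not pass the test. Aspn against XY controls was 0.03 with array weights and -0.34 to 0.12 when single arrays were left out, the highest without XY FOXL2+ replicate 2. It was -0.58, with no change of sign, without XY FOXL2+ replicates 3 and 4 together. Omd against XY controls was -0.07 without XY FOXL2+ replicates 3 and 4. Lum between the control sexes was -0.24 to 0.06 when arrays were left out. It was 0.00 without XY control replicate 2 and 0.06 without XX control replicate 3. The cause was not tested. Against XY controls, 4 members were called, 2 in a fit on the compared groups alone and 2 to 5 when arrays were left out. Against XX controls, 4 were called, 7 with array weights (Bgn, Prelp and Omd were added) and 4 to 6 when arrays were left out. Between the control sexes 5 were called, and 4 to 5 when arrays were left out. Leaving out XY FOXL2+ replicates 3 and 4 together, and leaving out arrays for the related and marker lists, was chosen after seeing the data.

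Replicate numbers did not pair the arrays: correlations of deviations ran from -0.0906 to 0.179 for the same number, and 4 of 12 arrays correlated best with their own number. With the replicate number as a block, 3, 4 and 4 members were called in the 3 comparisons (XY FOXL2+ minus XY control, minus XX control, and XX minus XY), Dcn against XY controls (adjusted p = 0.0516) and Prelp between the sexes (0.0596) being lost.

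Over the whole table, 4698 clusters were called against XY controls, 2700 in a fit on the compared groups alone, 3124 without XY control replicate 3 and 8318 without XY FOXL2+ replicates 3 and 4. Against XX controls 3635 were called, 6752 with array weights, 1916 on the compared groups alone, 1855 without XY FOXL2+ replicates 3 and 4, 5992 without XY FOXL2+ replicate 2, 2255 and 2012 without replicate 3 or 4, and 2041, 2068 and 2215 without XX control replicate 2, 3 or 4. Calls against XY controls were 34.5% higher, and 45.1% after quantile normalization (2184 higher, 2656 lower). Calls against XX controls were 52% higher, and 41.5% after median centring (1540 higher, 2172 lower). Calls between the sexes were 41.3% higher, 53.2% after quantile normalization and 50.9% after centring. Signals near the level of silent genes limit Prelp, Omd, Podn, Epyc, Kera, Ecm2, Optc and the XX values of Aspn. They also limit Tll1, Ibsp, Lhx1, Pax2, the control values of Dpt, the XY control values of Csgalnact1 and Foxl2, and the lowest XY FOXL2+ value of Foxl2.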
